A study of Homo sapiens with 6 samples.

Results

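The genes described here encode the TIMM and TOMM proteins and their partners, the machinery that carries proteins made in the cytosol into mitochondria. They were taken as every protein-coding gene of the deposited table whose symbol is TIMM or TOMM followed by a number, together with SAMM50, MTX1, MTX2, MTX3, PAM16, DNLZ, GRPEL1, GRPEL2, PMPCA and PMPCB. The rule used names only, not measured values, and it found 35 genes among 61496 features. A further 23 matching symbols belonged to pseudogenes or other transcripts that do not encode a protein, and these were kept apart. The study sequenced RNA of U251, an established human glioma line grown in DMEM with 10% FBS, after no treatment (control, 3 libraries) or after 2 h of sevoflurane gas (Sev, 3 libraries). The 2 groups shared the cell line and the medium, and no genetic change was made. The treatment protocol lists Sev at 1.7%, 3.4% and 5.1% without tying a concentration to a library, and the study names the highest of them for the sequenced cells. The study's statistics section speaks of independent experiments for its quantitative data in general, but neither the labels nor the sequencing methods say whether the 3 libraries of a group came from separate cultures, so the p-values measure the spread between libraries, which may be technical, in a single cell line.

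Nearly all mitochondrial proteins are encoded in the nucleus and reach the organelle as unfolded precursors. The TOM complex of the outer membrane is the common entry gate. From there, the SAM complex inserts barrel-shaped proteins into the outer membrane, the small TIM chaperones escort hydrophobic precursors across the intermembrane space, and the TIM22 complex places carrier proteins in the inner membrane. Precursors with a cleavable presequence pass through the TIM23 complex, are pulled into the matrix by the motor called PAM, and lose the presequence to the peptidase MPP. Import is fed by cytosolic chaperones and is watched by stress pathways, since precursors that fail to enter accumulate outside.

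Counts were scaled by edgeR's TMM method and are given as CPM, counts scaled to a common library size, and a gene was called when the Benjamini-Hochberg adjusted p-value of edgeR's quasi-likelihood test was under 0.05. Of the 35 genes, 34 passed the expression filter. TOMM20L, a relative of TOMM20 with 2 to 8 counts per library, did not and was not tested. With this rule 18 import genes were higher in Sev-treated cells, 1 was lower and 15 were not called. The higher genes made up 52.9% of those tested, against a background of 22.1% of all 27514 tested features and 25.0% of the 15189 tested protein-coding genes. TOMM40L, the lower gene, made up 2.94%, against a background of 21.5% of all features and 21.0% of protein-coding genes. The median log2 fold change of the 34 genes was 0.33, with quartiles of 0.06 and 0.60, and it was -0.0056 over all features and 0.038 over protein-coding genes. These counts and medians describe the genes and carry no test of the group as a whole.

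The changes were small for most genes. Of the 18 higher genes, 17 rose by a fold of less than 2. The study's own threshold asks for a p-value under 0.05 and a log2 fold change over 1. It was read here as an unadjusted p-value and a change in either direction, and TOMM6 and TOMM40L passed it. Over all features 11.4% passed it upward and 12.0% downward, and over protein-coding genes 9.07% and 7.62%. In 19 genes every Sev library lay above every control library, and in 3 genes, TOMM40L, MTX2 and SAMM50, every Sev library lay below, while the groups overlapped in 12. Over all features these shares were 28.3% above and 28.2% below. The TMM factors were 1.03 to 1.08 in control and 0.918 to 0.988 in Sev. When libraries were scaled by their size only, 13 import genes were higher and 3 were lower, as the median of all features moved to -0.147 and that of the import genes to 0.19. With that scaling 17.0% of all features were higher and 27.3% lower. The distance between both medians was 0.34 with either scaling. The deposited FPKM values, which carry no TMM-type scaling, gave 13 higher and 3 lower on the log2(FPKM + 1) scale, where 16.4% of all features were higher and 30.0% lower.

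**Figure D1:**
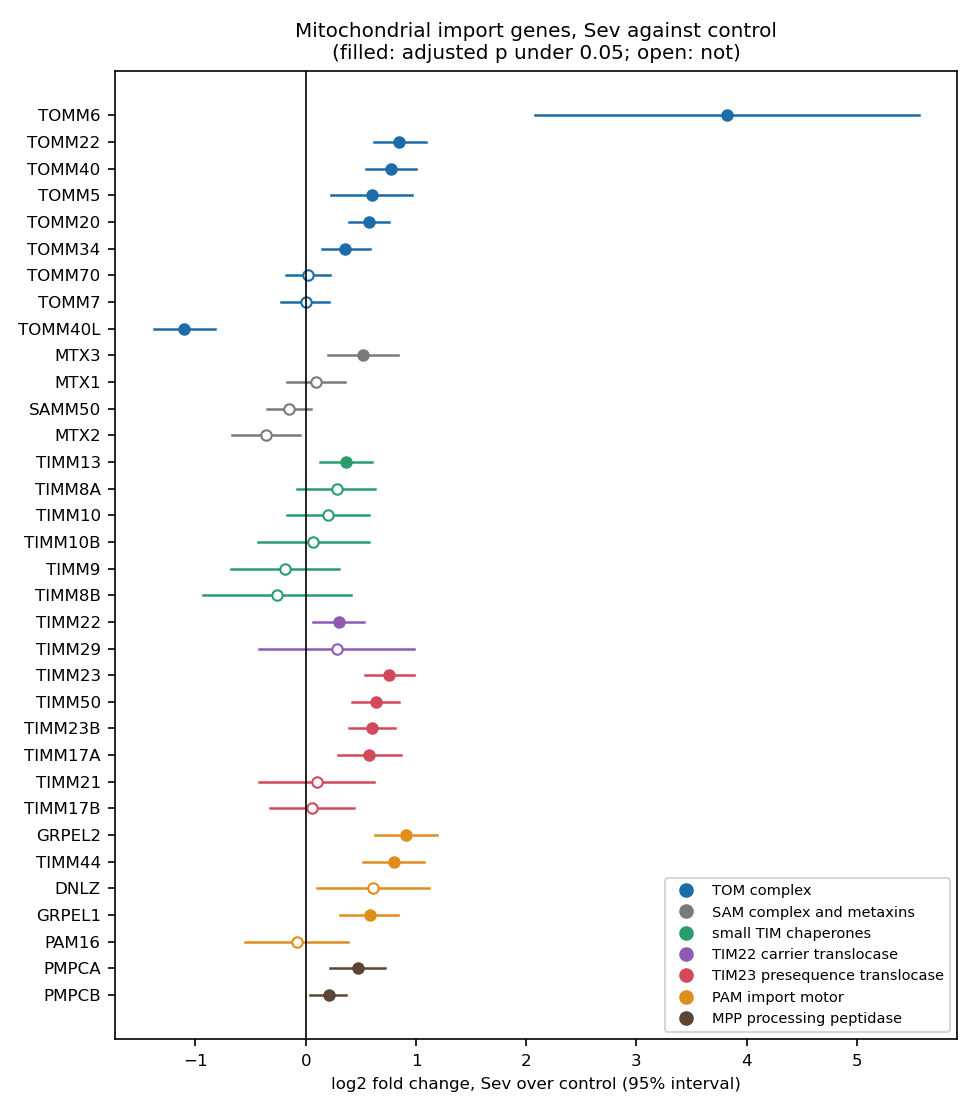
The log2 fold change of Sev over control is plotted on the x axis for each of the 34 tested import genes, grouped and coloured by complex, with a line for the 95% interval of edgeR's fit and a filled point for an adjusted p-value under 0.05. Most filled points lie between 0.21 and 0.91, with TOMM6 at 3.82 and TOMM40L at -1.10 apart from them.

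The promoters are shown for genes that moved together or apart, and because 2 of them are near copies. RefSeq entries on GRCh38.p14 were found for 31 of the 35 genes, without DNLZ, GRPEL1, TIMM8B and TOMM5, and the 250 bases before the annotated start were searched on both strands. The letters searched were CCGGAAG (the core bound by ETS factors), GGGCGG (the GC box), CCAAT (the box named after its letters), CACGTG (the E-box), TGATGNAAN (an element bound by ATF4 with CEBP partners) and TATAAA (the TATA box). GRPEL2 (chr5:149345249-149345498, plus strand), a gene of the import motor, held 3 ETS cores. TOMM20 (chr1:235128838-235129087, minus strand), the presequence receptor, held 1 ETS core and 1 E-box. TIMM23 (chr10:45972239-45972488, plus strand) and TIMM23B (chr10:49941803-49942052, plus strand), the inner membrane channel and its copy, shared a longest run of 101 bases and held 1 and 2 ETS cores. TOMM40L (chr1:161225810-161226059, plus strand), the gene that fell, held CCAAT boxes and a GC box but no ETS core. TOMM22, TOMM40, TIMM44, TIMM50 and TIMM17A, which rose, held no ETS core either. The sequences are written 5′ to 3′ along the gene, capitals mark the matches on either strand, and in TOMM40L a CCAAT box read on the other strand overlaps the GC box.
GRPEL2: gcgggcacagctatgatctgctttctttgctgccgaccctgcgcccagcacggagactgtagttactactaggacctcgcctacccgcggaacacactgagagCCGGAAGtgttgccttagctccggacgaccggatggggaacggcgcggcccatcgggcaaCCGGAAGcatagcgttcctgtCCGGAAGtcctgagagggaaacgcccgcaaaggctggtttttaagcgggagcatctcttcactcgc
TOMM20: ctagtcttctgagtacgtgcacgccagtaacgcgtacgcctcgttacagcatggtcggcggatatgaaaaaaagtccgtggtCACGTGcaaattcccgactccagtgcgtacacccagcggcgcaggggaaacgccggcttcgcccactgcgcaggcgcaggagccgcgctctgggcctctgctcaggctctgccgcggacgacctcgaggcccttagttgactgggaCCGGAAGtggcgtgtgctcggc
TIMM23: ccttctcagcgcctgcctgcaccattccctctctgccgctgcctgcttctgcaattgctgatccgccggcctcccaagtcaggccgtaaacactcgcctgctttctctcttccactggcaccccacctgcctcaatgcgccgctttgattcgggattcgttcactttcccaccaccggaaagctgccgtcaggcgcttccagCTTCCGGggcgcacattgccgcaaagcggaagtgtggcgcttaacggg
TIMM23B: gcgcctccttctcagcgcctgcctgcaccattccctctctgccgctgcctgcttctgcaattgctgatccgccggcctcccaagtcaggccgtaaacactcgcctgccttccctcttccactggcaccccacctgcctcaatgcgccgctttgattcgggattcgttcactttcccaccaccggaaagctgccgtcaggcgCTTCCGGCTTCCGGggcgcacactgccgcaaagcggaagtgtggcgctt
TOMM40L: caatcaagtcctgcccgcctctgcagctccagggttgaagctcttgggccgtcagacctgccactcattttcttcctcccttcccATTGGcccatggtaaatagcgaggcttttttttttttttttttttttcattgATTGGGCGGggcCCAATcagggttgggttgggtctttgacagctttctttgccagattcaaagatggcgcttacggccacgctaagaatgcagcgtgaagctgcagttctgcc

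An ETS core was found in 12 of the 31 promoters (38.7%), in 8 of the 16 genes called higher and 4 of the 15 others, while 8.78% of all 27305 RefSeq promoters and 11.7% of the 15843 promoters of protein-coding genes hold one. Beside the printed genes these were TOMM6, TOMM70 and TIMM10 with 2 cores each and MTX3, PMPCB, TIMM10B, TIMM13 and TIMM29 with 1 each. TOMM70 and TIMM10, which hold 2 cores, were among the genes not called. The GC box was in 54.8% of the import promoters, against 41.6% of all promoters and 54.9% of protein-coding ones, and the CCAAT box was in 35.5%, against 32.9% and 34.1%. The element of ATF4 was in TIMM22 and PMPCB (6.45%, against 3.25% of all promoters and 2.32% of protein-coding ones), and an E-box was in TOMM20 and MTX3 (6.45%, against 6.33% and 7.56%). No import promoter held a TATA box in this window, which 11.3% of all promoters and 9.51% of protein-coding ones hold. The matches describe letters in 250 bases and no binding was measured.

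The level of each gene per length of transcript was read from the deposited FPKM values, in which counts are divided by the length of the gene and the size of the library. In rows with few counts, such as TOMM20L, the FPKM values followed the counts less closely. In control cells TOMM20 was the highest of the import genes with 43.3 ± 0.594 FPKM (SD, n = 3), followed by TIMM10 with 25.5 ± 4.98 and TIMM23 with 23.9 ± 1.34, whose libraries overlap. TIMM13 had 18.8 ± 1.5 FPKM, TOMM7 18.1 ± 1.01 and TOMM40 15.2 ± 0.886. At the other end, TIMM21 had 0.773 ± 0.185 FPKM, DNLZ 0.591 ± 0.0706 and TOMM20L 0.153 ± 0.0577. The genes on the TOM list thus spanned a wide range of RNA levels, with TOMM20 and TOMM20L at the ends of the order. TOMM20L had too few counts to be tested. Of the tested genes on the list, TOMM5 had 4.44 ± 0.826 FPKM. After Sev, TOMM20 had the highest mean with 58.3 ± 6.25 FPKM and TOMM6 the next with 50.9 ± 16.5, in libraries that overlap. TOMM6 had 3.89 ± 3.17 FPKM in control, a change that the overlap of its gene described below makes uncertain. TIMM23 had 36.6 ± 1.35 FPKM and TIMM10 26.5 ± 3.30. TOMM40L went from rank 17 to rank 30 of the 35, with 6.46 ± 0.630 FPKM in control and 2.72 ± 0.316 in Sev.

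**Figure D2:**
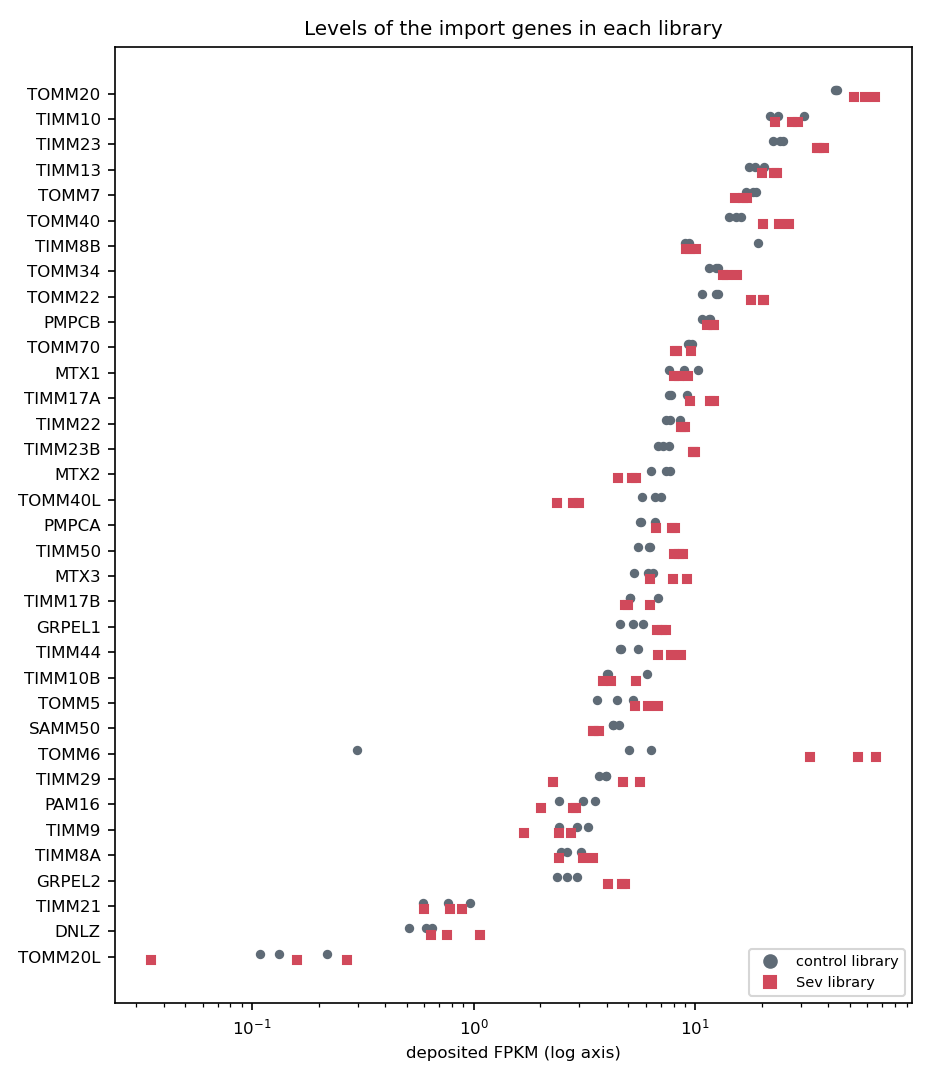
The deposited FPKM of each import gene is plotted on a log x axis, with circles for the 3 control libraries and squares for the 3 Sev libraries, and genes ordered by their control mean. TOMM20 is at the top with 43.3 FPKM, TOMM20L at the bottom with 0.153, and the squares of TOMM6 and TOMM40L stand clear of their circles in opposite directions.

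Among the receptors of the TOM complex, TOMM20 and TOMM22 rose and TOMM70 was not called. TOMM20 (ENSG00000173726, chromosome 1, 235109336 to 235128936, GRCh38), which recognises presequences, had 169, 177 and 178 CPM in the control libraries and 260, 241 and 279 CPM in the Sev libraries. The groups lay well apart, with a log2 fold change of 0.57 (adjusted p = 0.00122, standard error 0.08). TOMM22 (ENSG00000100216, chromosome 22, 38681948 to 38685421), the receptor that links the others to the channel, had 27.1, 33.1 and 31.8 CPM in control and 57.5, 52.6 and 56.1 CPM in Sev. It had the smallest p-value of the higher import genes, with a log2 fold change of 0.85 (adjusted p = 0.000641, standard error 0.10). TOMM70 (ENSG00000154174, chromosome 3, 100363431 to 100401398), which receives carrier precursors from cytosolic HSP70 and HSP90, had 54.1, 56.8 and 58.2 CPM in control and 53.6, 56.5 and 61.4 CPM in Sev. The groups of TOMM70 overlapped, and its log2 fold change was 0.02 with a 95% interval from -0.18 to 0.22 (adjusted p = 0.865). TOMM34, a cytosolic partner of HSP70 and HSP90, was higher by 0.36 (adjusted p = 0.0153), but its adjusted p-value was 0.0997 with library size only, 0.0528 without control replicate 1 and over the limit on each FPKM scale.

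The channel gene of the TOM complex and its relative moved in opposite directions. TOMM40 (ENSG00000130204, chromosome 19, 44890569 to 44903689), which encodes the pore, had 66.6, 65.9 and 60.9 CPM in control and 111, 98.6 and 121 CPM in Sev. It was higher in each Sev library, with a log2 fold change of 0.77 (adjusted p = 0.000725, standard error 0.10). TOMM40L (ENSG00000158882, chromosome 1, 161225939 to 161230744), which encodes a second form of the channel protein, had 26.6, 26.0 and 22.5 CPM in control and 12, 10.6 and 12.4 CPM in Sev. It was lower in each Sev library and had the smallest p-value of all import genes, with a log2 fold change of -1.10 (adjusted p = 0.000439, standard error 0.12). Within a library, the log2 ratio of TOMM40 to TOMM40L counts was 1.32, 1.34 and 1.44 in control and 3.21, 3.22 and 3.28 in Sev. The ratio rose by 1.87 on the log2 scale without any scaling between libraries. TOMM40L shares 20.1% of its exon bases with NR1I3 on the opposite strand, a gene with 30 to 98 counts per library, and no 100-base stretch of TOMM40L recurs in another gene of the annotation. Of the 100-base stretches of TOMM40, 3.41% recur in other genes, mostly its pseudogenes.

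**Figure D3:**
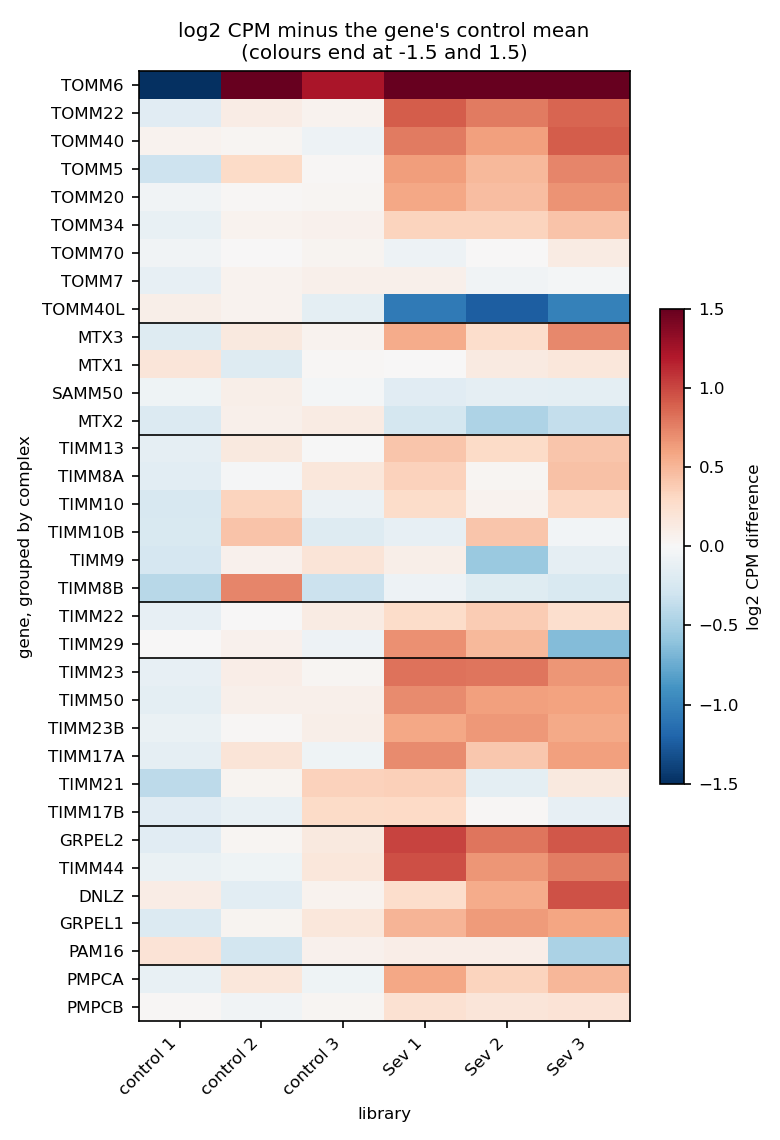
Each cell shows the log2 CPM of an import gene (y axis, grouped by complex) in a library (x axis) minus the mean of the 3 control libraries, in a colour scale that ends at -1.5 and 1.5. The 3 Sev libraries are alike for TOMM20, TOMM22, TOMM40, TIMM23, TIMM44, TIMM50 and GRPEL2 (red) and for TOMM40L (blue), while TOMM6 in control 1, TIMM8B in control 2 and TIMM29 in Sev 3 stand apart from their own groups.

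Of the small subunits that surround the TOM channel, TOMM5 and TOMM6 were called higher and TOMM7 was not called, with a 95% interval of its log2 fold change from -0.22 to 0.21. TOMM5 had 15.0, 22.8 and 18.9 CPM in control and 28.8, 26.0 and 30.9 CPM in Sev, a log2 fold change of 0.60 (adjusted p = 0.0181). Its adjusted p-value ran from 0.00976 to 0.0571 over the fits that left out 1 library each, and leaving out control replicate 3, Sev replicate 1 or Sev replicate 3 ended the call. TOMM5 shares exon bases with 2 longer genes of the same strand, and with their counts added to its own the log2 fold change was 0.72 (adjusted p = 0.00757).

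TOMM6 (ENSG00000214736, chromosome 6, 41787662 to 41789898) had 10, 192 and 185 counts in the control libraries and 1022, 1747 and 2067 in the Sev libraries. The fitted log2 fold change was 3.82 (adjusted p = 0.00510, standard error 0.75), by far the largest among the import genes. All 637 exon bases of TOMM6 (100%) also belong to ENSG00000124593, a longer gene of the same strand (chromosome 6, 41780349 to 41790141). That gene had 1510, 1686 and 1773 counts in control and 968, 267 and 374 in Sev, and was itself called lower, with a log2 fold change of -1.44 (adjusted p = 0.0270). As TOMM6 gained counts the longer gene lost them, and their sum was 1520, 1878 and 1958 in control and 1990, 2014 and 2441 in Sev. With the sum in place of TOMM6 the log2 fold change was 0.44 (adjusted p = 0.0206, standard error 0.12). How reads that fit both genes were assigned is not given in the sources used here, and its part in the large fold of TOMM6 was not tested. Over the fits that left out 1 library each, the log2 fold change of TOMM6 ran from 3.27 to 4.34.

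PAM16, a regulator of the import motor, had the same kind of neighbour. PAM16 had 406, 273 and 422 counts in control and 335, 334 and 237 in Sev, and was not called (log2 fold change -0.08, 95% interval from -0.55 to 0.38, adjusted p = 0.762). CORO7-PAM16, a readthrough gene that holds 21.9% of its exon bases, had 4, 9 and 12 counts in control and 107, 361 and 94 in Sev, and was called higher with a log2 fold change of 4.67 (adjusted p = 0.00143). Summed, the pair had 410, 282 and 434 counts in control and 442, 695 and 331 in Sev, which overlap. The log2 fold change of the sum was 0.58 (adjusted p = 0.126, standard error 0.28), with the sign opposite to that of PAM16 alone. These overlaps were read from GENCODE 29, and the annotation used for the counting is not given in the sources used here. In all, 20 of the 35 genes share exon bases with another gene of the table and 9 do so on the same strand.

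**Figure D4:**
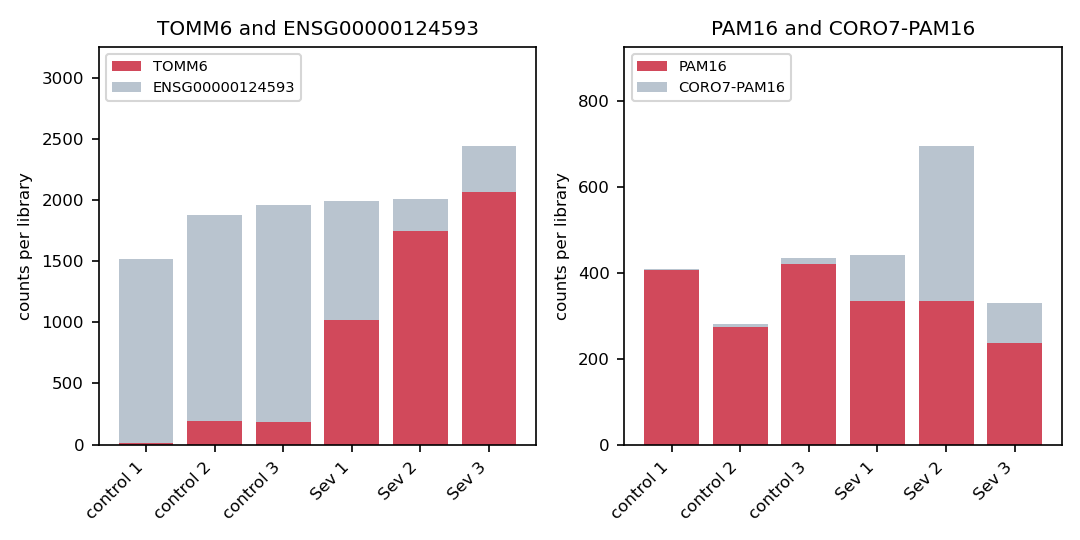
Stacked bars give the deposited counts per library (y axis) of TOMM6 and ENSG00000124593 in the left panel, and of PAM16 and CORO7-PAM16 in the right panel, for 3 control and 3 Sev libraries (x axis). TOMM6 takes 10 to 192 counts of each control bar and 1022 to 2067 of each Sev bar, while the full bars differ less, from 1520 to 1958 in control and from 1990 to 2441 in Sev.

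In the SAM complex and the metaxins, its partners on the outer membrane, 1 of 4 genes was called, with a median log2 fold change of -0.03, and 43.7% of all features were called in either direction. SAMM50 (ENSG00000100347, chromosome 22, 43955421 to 44010531), the core that inserts barrel-shaped proteins, had 31.3, 34.8 and 32.2 CPM in control and 29, 29.8 and 29.6 CPM in Sev. The Sev libraries were below the control libraries by a small margin, with a log2 fold change of -0.15 (adjusted p = 0.184, standard error 0.09). MTX2 had 12.5, 15.2 and 15.6 CPM in control and 12, 10.4 and 11.2 CPM in Sev, a log2 fold change of -0.36 (adjusted p = 0.0581). Both were called lower with library size only (adjusted p = 0.0193 for MTX2 and 0.0273 for SAMM50) and on the FPKM scales, and MTX2 also with TMM on protein-coding genes (adjusted p = 0.0373) and without control replicate 1 (adjusted p = 0.0317). MTX1 had a log2 fold change of 0.09 and its groups overlapped. MTX3 was higher by 0.52 (adjusted p = 0.0181), with 48.6, 61.2 and 57.4 CPM in control and 81.4, 66.4 and 91.5 CPM in Sev. Leaving out control replicate 1, control replicate 3, Sev replicate 1 or Sev replicate 3 ended that call, with adjusted p-values from 0.00739 to 0.0646 over the left-out fits.

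Of the 6 small TIM chaperone genes of the intermembrane space, 1 was higher and 0 were lower, with a median log2 fold change of 0.13, beside 22.1% of all features called higher. TIMM13, the partner of TIMM8A in one of the chaperone rings, was the called gene, with 33.4, 40.7 and 36.6 CPM in control and 48.9, 44.7 and 49.1 CPM in Sev. Its log2 fold change was 0.37 (adjusted p = 0.0203), and over the left-out fits the adjusted p-value ran from 0.0185 to 0.0755. Leaving out control replicate 1, control replicate 3, Sev replicate 1 or Sev replicate 3 ended the call. TIMM13 shares 13.0% of its exon bases with LMNB2 on the same strand, which had 9539 to 12870 counts per library. It shares 15.9% with TMPRSS9 on the opposite strand, which had a log2 fold change of 2.04. The part of these genes in the call was not tested. TIMM9 and TIMM10, which form the other ring, had log2 fold changes of -0.19 (95% interval from -0.68 to 0.30) and 0.20 (95% interval from -0.17 to 0.57), and neither was called. TIMM8A and TIMM10B were not called, with 0.28 and 0.07. TIMM8B had 514, 1068 and 630 counts in control and 579, 537 and 552 in Sev, so control replicate 2 stood apart. Its log2 fold change was -0.26 (adjusted p = 0.507) with all libraries and 0.20 without control replicate 2.

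The TIM22 complex was represented by 2 genes. TIMM22 (ENSG00000177370, chromosome 17, 997117 to 1003671), the carrier channel of the inner membrane, had 27.0, 29.5 and 32.2 CPM in control and 35.7, 38.5 and 35.2 CPM in Sev. It was higher in each Sev library with a log2 fold change of 0.30 (adjusted p = 0.0394, standard error 0.10). The call lay near the limit, since 5 of the 6 fits without 1 library lost it and only that without control replicate 3 kept it, with adjusted p-values from 0.0489 to 0.125. TIMM29, a subunit of the same complex, had 8.20, 8.48 and 7.75 CPM in control and 13.1, 11.4 and 5.17 CPM in Sev. Sev replicate 3 was below the control libraries and the other two were above them. The log2 fold change of TIMM29 was 0.28 (adjusted p = 0.490) with all libraries and 0.59 (adjusted p = 0.0170) without Sev replicate 3.

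The TIM23 complex had 4 of 6 genes higher and 0 lower, with a median log2 fold change of 0.59, beside the same 22.1% of all features. TIMM23 (ENSG00000265354, chromosome 10, 45972449 to 46003734), the presequence channel, had 30.5, 35.5 and 33.9 CPM in control and 58.6, 58.0 and 52.8 CPM in Sev. Its log2 fold change was 0.76 (adjusted p = 0.000718, standard error 0.09). TIMM23B (ENSG00000204152, chromosome 10, 49942033 to 49974850), the copy whose promoter is printed above, had 23.9, 26.0 and 27.3 CPM in control and 38.5, 40.3 and 38.2 CPM in Sev. Both copies rose, TIMM23B with a log2 fold change of 0.60 (adjusted p = 0.00167, standard error 0.09). Of the 100-base stretches of TIMM23, 4.90% recur in TIMM23B, so reads could be split between them, and their summed counts gave a log2 fold change of 0.69 (adjusted p = 0.000675). TIMM50 (ENSG00000105197, chromosome 19, 39480412 to 39493785), the receptor that hands presequences to the channel, had 45.6, 53.2 and 53.4 CPM in control and 82.7, 77.4 and 76.6 CPM in Sev. The groups lay apart, with a log2 fold change of 0.64 (adjusted p = 0.00137, standard error 0.09).

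TIMM17A and TIMM17B are alternative partners of the TIM23 channel, and they did not show the same values. TIMM17A had 30.8, 38.8 and 32.3 CPM in control and 55.3, 44.6 and 51.6 CPM in Sev, a log2 fold change of 0.57 (adjusted p = 0.00764) that lost its call on the FPKM scale without a filter (adjusted p = 0.0548). TIMM17B had 15.0, 15.7 and 20.6 CPM in control and 20.8, 17.2 and 15.6 CPM in Sev, which overlap, and a log2 fold change of 0.06 with a 95% interval from -0.32 to 0.44. The log2 ratio of TIMM17A to TIMM17B counts was 1.03, 1.31 and 0.65 in control and 1.41, 1.38 and 1.73 in Sev, a difference of 0.51 without overlap. TIMM21, which couples the channel to the respiratory chain, had a log2 fold change of 0.10 and overlapping groups.

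Of the 5 genes of the import motor PAM, 3 rose, with a median log2 fold change of 0.61, and 22.1% of all features did. TIMM44 (ENSG00000104980, chromosome 19, 7926718 to 7943920), which anchors the matrix HSP70 at the channel, had 24.8, 25.4 and 30.1 CPM in control and 52.0, 42.3 and 45.5 CPM in Sev. The log2 fold change was 0.80 (adjusted p = 0.00154, standard error 0.12). GRPEL2 (ENSG00000164284, chromosome 5, 149345430 to 149354583) and GRPEL1 (ENSG00000109519, chromosome 4, 7058906 to 7068197) encode exchange factors that release ADP from the matrix HSP70. GRPEL2 had 12.2, 14 and 15.3 CPM in control and 27.8, 24.1 and 26.2 CPM in Sev, with a log2 fold change of 0.91 (adjusted p = 0.000985, standard error 0.12). GRPEL1 had 21.5, 25.5 and 28.0 CPM in control and 35.5, 38.7 and 37.5 CPM in Sev, with a log2 fold change of 0.58 (adjusted p = 0.00557, standard error 0.12). Both forms rose, and the log2 ratio of GRPEL1 to GRPEL2 counts went from 0.82, 0.86 and 0.87 in control to 0.35, 0.68 and 0.52 in Sev. DNLZ, which keeps the matrix HSP70 soluble, had 2.34, 1.94 and 2.25 CPM in control and 2.60, 3.19 and 4.19 CPM in Sev. The Sev libraries of DNLZ were above the control libraries, with a log2 fold change of 0.61 that was not called (adjusted p = 0.0536). It was called without Sev replicate 1 (adjusted p = 0.0382), with DESeq2's size factors (adjusted p = 0.0486) and with DESeq2's Wald test (adjusted p = 0.0433). Of its 100-base stretches, 16.8% recur in CARD9. HSPA9, the matrix HSP70 itself, is no TIMM or TOMM gene and was chosen for mention after its values were seen. It had 258, 334 and 320 CPM in control and 497, 468 and 554 CPM in Sev, a log2 fold change of 0.74 (adjusted p = 0.00208).

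Both subunits of the peptidase MPP, which removes the presequence, were called higher, beside 22.1% of all features. PMPCA had 42.5, 51.6 and 43.9 CPM in control and 68.3, 58.0 and 64.5 CPM in Sev, a log2 fold change of 0.47 (adjusted p = 0.00980) that lost its call on 2 of the FPKM scales. PMPCB (ENSG00000105819, chromosome 7, 103297422 to 103329511), the catalytic subunit, had 84.5, 80.8 and 85.5 CPM in control and 98.3, 95.1 and 96.0 CPM in Sev. The rise of PMPCB was small, with a log2 fold change of 0.21 (adjusted p = 0.0469, standard error 0.07). The call of PMPCB was lost without any one of the 6 libraries, with adjusted p-values from 0.0545 to 0.144. PMPCB shares 13.0% of its exon bases with DNAJC2 on the opposite strand, which had a log2 fold change of 0.83. The part of DNAJC2 in the rise of PMPCB was not tested.

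Ratios of related genes were compared within libraries for 11 pairs, so that the scaling between libraries had no part in them. The groups did not overlap for 5 pairs, which are TOMM40 to TOMM40L, TIMM17A to TIMM17B, TIMM23 to TIMM23B, GRPEL1 to GRPEL2, and TIMM22 to TIMM23. Each had an exact permutation p of 0.1 (two-sided), the smallest that 3 libraries against 3 allow, and 0.22 after adjustment over the 11 pairs, so no pair could pass a limit of 0.05. The difference of 1.87 for TOMM40 to TOMM40L stood against standard deviations of 0.06 in control and 0.04 in Sev (n = 3 each). TIMM23 to TIMM23B moved by 0.16, from a mean of 0.37 to 0.53 with standard deviations of 0.07 in both groups. TIMM22, the carrier channel, fell relative to TIMM23, the presequence channel, with a log2 ratio of -0.18, -0.27 and -0.07 in control and -0.71, -0.59 and -0.58 in Sev. The groups overlapped for TIMM8A to TIMM8B, TIMM10 to TIMM10B, TIMM9 to TIMM10, MTX1 to MTX3, PMPCA to PMPCB, and TOMM20 to TOMM20L, with exact permutation p-values from 0.2 to 0.7.

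**Figure D5:**
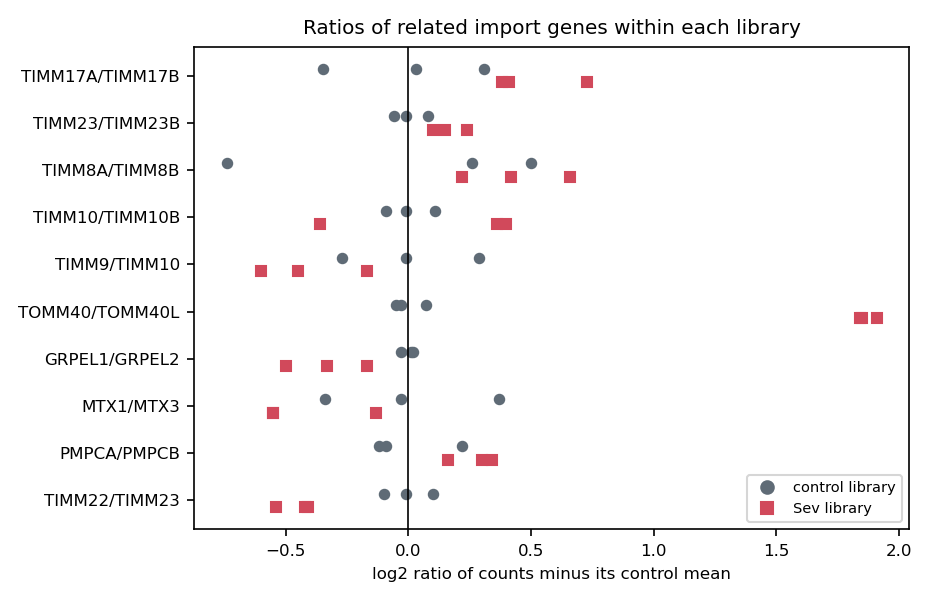
The log2 ratio of counts within each library, minus its mean over the control libraries, is plotted on the x axis for 10 of the 11 pairs, with circles for control and squares for Sev libraries. TOMM40 to TOMM40L lies near 1.87 in all Sev libraries, and the remaining pairs lie within 1 log2 unit of their control mean.

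Other genes of import and of the mitochondrial stress pathways were taken from lists chosen by function, and their counts stand beside the 22.1% of all features called higher and the 21.5% called lower. Of 22 further import genes, 5 were higher and 2 lower, with a median log2 fold change of 0.11, and of 7 genes of the MICOS complex, which shapes the cristae, 3 were higher and 0 lower, with 0.12. Among these the higher gene with the smallest p-value was GFER, the oxidase that works with CHCHD4 in the intermembrane space, with a log2 fold change of 0.95 (adjusted p = 0.000877). IMMP2L, a subunit of the inner membrane peptidase, had a log2 fold change of -1.11 (adjusted p = 0.00256), and DNAJC19, the partner of PAM16 in the motor, had -0.35 (adjusted p = 0.0375). Of 13 genes that deliver or watch over precursors in the cytosol and at the outer membrane, 7 were higher and 1 lower, with a median of 0.33. Of these MARCHF5 (0.78, adjusted p = 0.000345) and MUL1 (0.59, adjusted p = 0.00156) encode ubiquitin ligases of the outer membrane rather than chaperones. Of 12 mitochondrial proteases and stress factors, 5 were higher and 2 lower, with a median of 0.04. ATF5, a transcription factor of the mitochondrial stress response, had a log2 fold change of 1.21 (adjusted p = 0.000588). OMA1, a stress-activated inner membrane protease, fell from 11.0, 10.4 and 11.7 CPM to 2.34, 3.99 and 3.08 CPM, a log2 fold change of -1.81 (adjusted p = 0.000501), and HTRA2, a protease of the intermembrane space, had -0.38 (adjusted p = 0.0379).

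Together the import genes took 1100, 1180 and 1170 CPM of the library without TMM scaling in control and 1440, 1310 and 1520 in Sev. The libraries held 38624292 to 46318311 counts. The median of the tested import genes, as log2 CPM minus the control mean, was -0.13, 0.05 and 0.05 in control and 0.35, 0.34 and 0.43 in Sev. All 3 Sev libraries lay above all 3 control libraries. The tissue label was checked with 8 astroglial and glioma markers. All had more than 3 counts in some library, but CHI3L1 and AQP4 had too few to be tested. The 8 markers summed to 7720 to 9070 CPM in control and 8140 to 8900 CPM in Sev. VIM, with 202979 to 258088 counts per library, gave most of each sum. GFAP had 7946 to 18130 counts and S100B 389 to 1206, so the sums mainly describe VIM. Of the 8 markers, CD44 was called higher, and SOX2 and S100B lower. A list of 8 markers of other cell types summed to 6.6 to 8.2 CPM in control and 7.85 to 10.1 CPM in Sev, with 1 of them at 0 and MBP and PECAM1 called higher. Their part in the values of the import genes was not tested. In bulk RNA, a change in the number of cells that express a gene and a change in its RNA per cell cannot be told apart.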

How the data were processed

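Total RNA of U251 cells was depleted of ribosomal RNA, joined to strand-specific adapters and sequenced. As deposited by the authors, the tables hold counts of each gene in each library and the matching FPKM values. Of the 61496 features, 60564 carry Ensembl identifiers. A further 932 carry identifiers that start with MSTRG and have no position here. The submitters' processing notes name bcl2fastq 2.19, featureCounts and hg18, and the counting options, the aligner and the gene annotation are not given in the sources used here. Symbols were joined through Ensembl identifiers (60295 matched), and positions, types and overlaps came from GENCODE 29 on GRCh38. The table holds Ensembl identifiers of recent genes, so whether hg18 was the build of the counting is unclear.

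Libraries were grouped by their labels, 3 control and 3 Sev, with 38624292 to 46318311 counts each. Counts were tested in R 4.3.3 with edgeR 4.0.16 (filterByExpr, TMM, glmQLFit, glmQLFTest) without covariates, with Benjamini-Hochberg adjustment over 27514 features. CPM values hold no prior count. FPKM equalled counts over length and library size within 0.0452 on the log2 scale for the 11599 genes compared, of 61496 features. Rows with few counts departed further. TOMM20L had 8 counts and 0.269 FPKM in Sev 1, and 2 counts and 0.0352 FPKM in Sev 2. Ratios were compared by two-sided exact permutation tests in Python 3.11.15 with scipy 1.17.1. Sequence stretches shared between genes were found as 100-base windows of the annotated transcripts.

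Alternatives used DESeq2 1.42.0 (size factors, Wald test), library size only, TMM on protein-coding genes, other expression filters, a replicate block, each library left out, and limma 3.58.1 on log2(FPKM + 1) or log2(FPKM + 0.1). Sums of overlapping genes and of the TIMM23 copies were added after the data were seen. The fit was tested on simulated data with 200 changed genes. The genes and lists were chosen with earlier results of these data known. All import genes are named, and values in every library are given for those called, up to 10 in each direction by p, for the central subunits, and for others that stood apart. Of the other lists, up to 4 genes called in each direction have values, HSPA9 apart.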

Additional observations from a re-analysis of the deposited data

Results flagged for a closer look

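Pseudogenes were outside the comparisons, and most had too few counts to be tested. Those tested were TIMM9P1, TIMM9P2, TOMM22P5, TOMM40P1, TOMM40P2 and TOMM40P4. Of these, 4 copies of TOM genes were called higher, beside 22.1% of all features. TOMM40P1 had 187, 200 and 223 counts in control and 343, 344 and 360 in Sev, a log2 fold change of 0.96. TOMM40P2 had 318, 351 and 383 counts in control and 675, 667 and 817 in Sev, a log2 fold change of 1.21. TOMM40P4 had 155, 167 and 167 counts in control and 341, 448 and 341 in Sev, a log2 fold change of 1.39. TOMM40 itself was also higher, and how reads that fit several copies were assigned is not given in the sources used here. TOMM22P5 had 0 counts in each control library and 10, 14 and 14 in Sev, at least 4.76-fold higher against a floor of 3 counts in each control library. In the other direction, TIMM9P2 had 29, 22 and 14 counts in control and 4, 2 and 3 in Sev, a log2 fold change of -2.65 (adjusted p = 0.00503, edgeR's quasi-likelihood test). TIMM9P1 was not called.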

How the results depend on the processing

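All 19 called import genes had the same direction in all 18 alternatives that give them a value, and 11 also stayed past the adjusted p limit in every one. The 8 that did not were PMPCB, TIMM22, MTX3, TIMM13, TOMM34, TOMM5, PMPCA (adjusted p = 0.0505 for log2(FPKM + 0.1) and 0.0799 with no filter) and TIMM17A (0.0548 with no filter). With library size only, 14 of the 19 did so, and 13 did so in all 6 fits that left out 1 library. The count of higher genes was 18 as reported, 19 with DESeq2's size factors or Wald test, and 13 to 16 with 1 library left out, where the count of lower genes was 1 to 2 and the median log2 fold change 0.28 to 0.39. Over all features the share higher was 22.7% and 22.6% with the DESeq2 settings and 16.7% to 20.0% with 1 library left out. The share lower was 15.6% to 19.3% with 1 library left out. With TMM on protein-coding genes 16 import genes were higher and 2 lower, against 20.4% and 23.2% of all features. The count of lower genes was 3 with library size only (median 0.19), against 27.3% of all features, and 3 on each FPKM scale. On these scales the higher genes and the median were 13 and 0.17 for log2(FPKM + 1), 11 and 0.19 for log2(FPKM + 0.1), and 10 and 0.14 for log2(FPKM + 1) with no filter. Over all features the shares higher and lower were 16.4% and 30.0%, 16.2% and 29.2%, and 9.64% and 14.5% in that order. The FPKM values carry no scaling between libraries beyond their totals. Past the study's threshold 1 gene was left with overlapping genes summed, which was done for TOMM6, PAM16, TIMM10B and TOMM5 but not for the other genes that overlap on the same strand, such as DNLZ and TIMM13, as TOMM6 then fell short of it. With the replicate number as a block, 15 genes were higher and 1 lower, against 19% and 18.2% of all features. Same-numbered libraries did not deviate together (correlations -0.00723, 0.00351 and 0.0270). With 3 libraries per group this cannot show that the samples were unpaired, and the labels do not say whether they were paired. The precision is limited by 3 libraries per group, and by depth for TOMM20L.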
